A study of Homo sapiens with 12 samples.

Results

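The integrins and laminins described here are the 38 genes of the count table whose symbols name an integrin alpha subunit (ITGA1 to ITGA11, ITGAV, ITGAE, ITGAL, ITGAM, ITGAX, ITGAD and ITGA2B), an integrin beta subunit (ITGB1 to ITGB8) or a laminin chain (LAMA, LAMB and LAMC). They comprise 18 alpha subunits, 8 beta subunits and 12 laminin chains of 26475 gene symbols in all and were taken by name. The libraries came from MIAPaCa2, an established pancreatic ductal adenocarcinoma (PDAC) cell line that depends on glycolysis, and from a polyclonal oxamate-resistant population that survived continuous culture of the same line in oxamate, an inhibitor of lactate dehydrogenase A (LDHA). Parental and oxamate-resistant cells were each treated with vehicle (untreated in the labels) or with oxamate, the LDHA inhibitor of the labels, with 3 libraries in each of the 4 groups. The labels name no genetic change in any group, and all groups share the MIAPaCa2 background. Since 1 resistant population was compared with 1 parental line, resistance and any other difference that arose between these cultures cannot be told apart.

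Integrins are heterodimers of an alpha and a beta subunit that bind matrix outside the cell and, through talin and kindlin, the actin cytoskeleton inside it. The alpha subunit largely sets the ligand. ITGA1, ITGA2, ITGA10 and ITGA11 bind collagens, ITGA3, ITGA6 and ITGA7 bind laminins, and ITGA5, ITGA8, ITGAV and ITGA2B bind RGD-containing ligands such as fibronectin and vitronectin. ITGA4 and ITGA9 bind fibronectin, VCAM1 and tenascins, and ITGAL, ITGAM, ITGAX, ITGAD and ITGAE are characteristic of leukocytes. Laminins are cross-shaped trimers of an alpha, a beta and a gamma chain that build the basement membrane, and the alpha chain is needed for secretion of the trimer. In pancreatic cancer, adhesion to laminin and collagen through ITGB1 and ITGB4 dimers is known to affect survival and invasion.

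The 12 libraries summed to between 46698729 and 114222169 counts, and the least deep parental library exceeded the deepest resistant one. Levels are given as CPM, counts relative to library size with TMM factors, and a floor of 3 counts corresponded to between 0.0283 and 0.0581 CPM per library. Floors and counting intervals cover counting error only. Integrin and laminin genes took between 0.341% and 0.400% of the counts of a library. The keratins KRT8, KRT18 and KRT19 were abundant in every group, as was VIM. KRT8 was at a mean of 1458 CPM in vehicle-treated parental and 676 CPM in vehicle-treated resistant cells. The epithelial markers EPCAM and CDH1 had no more than 3 counts in any library, and KRT7 was at 0.222 and 0.597 CPM in the same groups. Of the other mesenchymal markers, CDH2 had no more than 2 counts in any library. ZEB1 was at 88.2 CPM in vehicle-treated parental and 61.9 CPM in vehicle-treated resistant cells, and FN1 at 0.339 and 19.2 CPM. Of 6 leukocyte markers, 3 had no more than 3 counts in any library, among them PTPRC and CD3E, and CD68, LYZ and SPI1 were above the floor. The summed level of the 6 markers lay between 182 and 189.9 CPM in vehicle-treated parental and between 76.8 and 81.2 CPM in vehicle-treated resistant libraries. RNAs that are retained in the nucleus (MALAT1, NEAT1, KCNQ1OT1 and MIAT) summed to 321, 357 and 332 CPM in the vehicle-treated parental libraries, 557, 544 and 1187 CPM in the oxamate-treated parental libraries, 583, 534 and 1112 CPM in the vehicle-treated resistant libraries and 1238, 1079.9 and 1407 CPM in the oxamate-treated resistant libraries. The third oxamate-treated parental and the third vehicle-treated resistant library thus stood apart from the other two of their group, and values that moved with them are given beside the results below. Every vehicle-treated parental library was below every other library, so this sum also differed between groups. Fits with it as a covariate can therefore take away part of a difference between groups, and the 2 cannot be fully told apart. The labels do not say whether the replicates were separate cultures, so the p-values measure the spread between these libraries, which may be technical.

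At the count floor were 4 of the 38 genes. ITGA8, an RGD-binding alpha subunit, and LAMA1, the alpha chain of embryonic laminin, had 0 counts in all 12 libraries, ITGA11 had at most 2 counts and LAMB4 at most 1 count in any library. A count of 0 in a library allows a level of up to the 3-count floor. A further 7 genes were above the floor in at least 1 library but too low for edgeR's filter. Of these, ITGA2B, the platelet alpha subunit, reached at most 12 counts, ITGA4 11.7, ITGB7 9, ITGAL 6, LAMA4 5 and ITGAD 4 counts. The remaining 27 genes were tested, and no fold change is given for the other 11.

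Between genes, levels were compared per kilobase of merged exon (GENCODE release 29). ITGA3, a laminin-binding alpha subunit, was the most abundant alpha subunit in every group, at 81.3 ± 2.49 CPM per kilobase (SD, n = 3) in vehicle-treated parental and 95.4 ± 1.46 CPM per kilobase in vehicle-treated resistant cells. It made up 73.0% of the summed level of all alpha subunits in vehicle-treated parental and 78.8% in vehicle-treated resistant cells. ITGA5, ITGA6 and ITGAV formed a second tier between 6.21 and 10.1 CPM per kilobase over the group means. In vehicle-treated parental cells their order was ITGA5 (9.99 ± 0.0983), ITGA6 (9.01 ± 0.303) and ITGAV (8.07 ± 0.360). In vehicle-treated resistant cells ITGAV came first (9.31 ± 0.160), ahead of ITGA6 (7.70 ± 0.142) and ITGA5 (6.21 ± 0.171), and the order of the last pair turned when the longest transcript was used as the gene length. ITGB1, the shared partner of most alpha subunits, and ITGB4, the hemidesmosome partner of ITGA6, held nearly all of the beta subunit level in each group, with ITGB1 at 187 ± 5.01 and ITGB4 at 168 ± 2.42 CPM per kilobase in vehicle-treated parental cells. ITGB4 was thus far above its only known alpha partner, ITGA6, in every group. ITGB5 followed at 8.22 ± 0.288 CPM per kilobase, and ITGB2, ITGB3, ITGB6, ITGB7 and ITGB8 did not exceed 0.406 CPM per kilobase, the level of ITGB3 in oxamate-treated parental cells and the highest of these 5. LAMC1 was the leading laminin chain in each group (21.9 ± 0.190 CPM per kilobase in vehicle-treated parental cells), followed by LAMA5 (5.17 ± 0.0348).

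**Figure D1:**
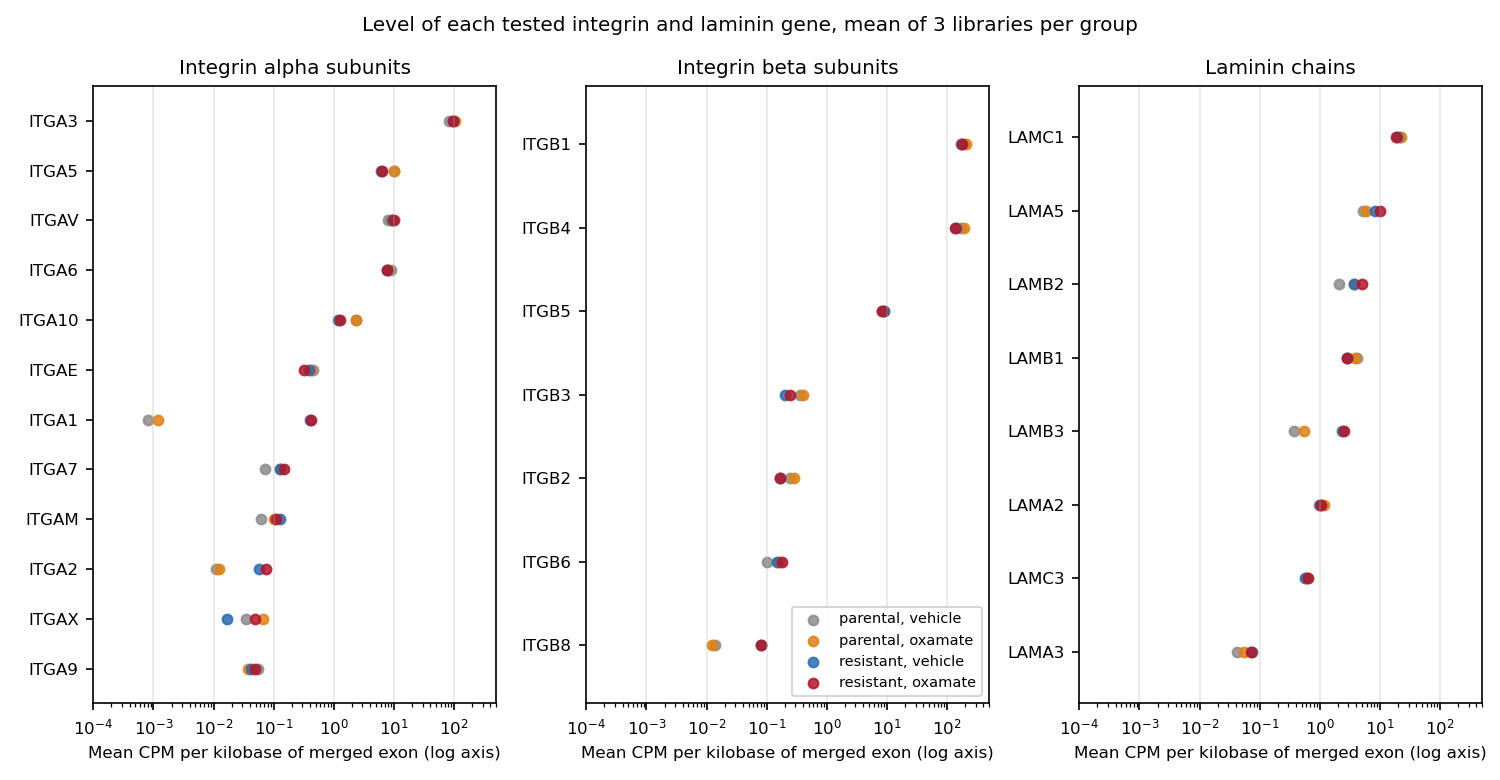
Mean CPM per kilobase of merged exon (log axis) of the 27 tested genes in the 4 groups, 1 point per group over 3 libraries. ITGA3, ITGB1, ITGB4 and LAMC1 lead their families in each group, and ITGA1 is the gene whose parental and resistant points lie farthest apart.

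Resistant cells were first compared with parental cells under vehicle, which asks how the resistant population differed in the absence of drug. The 4 genes with the largest increases were the collagen receptor subunit ITGA1, the laminin chain LAMB3, the alpha-v partner ITGB8 and the collagen receptor subunit ITGA2, and those that fell by over 1.5-fold were ITGAX, ITGA10, ITGB3 and the fibronectin receptor subunit ITGA5. Of the 27 tested genes, 13 rose at an adjusted p under 0.05 (48.1%), where 38.4% of all 14582 genes tested did, and 10 fell (37.0%), where 37.3% of all genes did. With a change of over 1.5-fold as well, 9 rose (33.3%, against 17.0% of all genes) and 4 fell (14.8%, against 6.09%). Their median log2 fold change was 0.027, beside 0.025 over all genes tested, so the genes moved apart from each other with little net shift. Under oxamate, 6 genes were higher in resistant than in parental cells (22.2%, against 40.6% of all genes) and 11 were lower (40.7%, against 39.7%), of which 5 (all genes 22.7%) and 4 (all genes 11.4%) differed by over 1.5-fold. The medians under oxamate were -0.044 for the 27 genes and 0.015 over all genes. Scaling by library size alone in place of TMM raised the median of all genes by 0.22 under vehicle and by 0.32 under oxamate, and then gave 15 higher and 5 lower genes under vehicle and 18 higher and 6 lower genes under oxamate. Small changes below are therefore relative to the median gene.

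**Figure D2:**
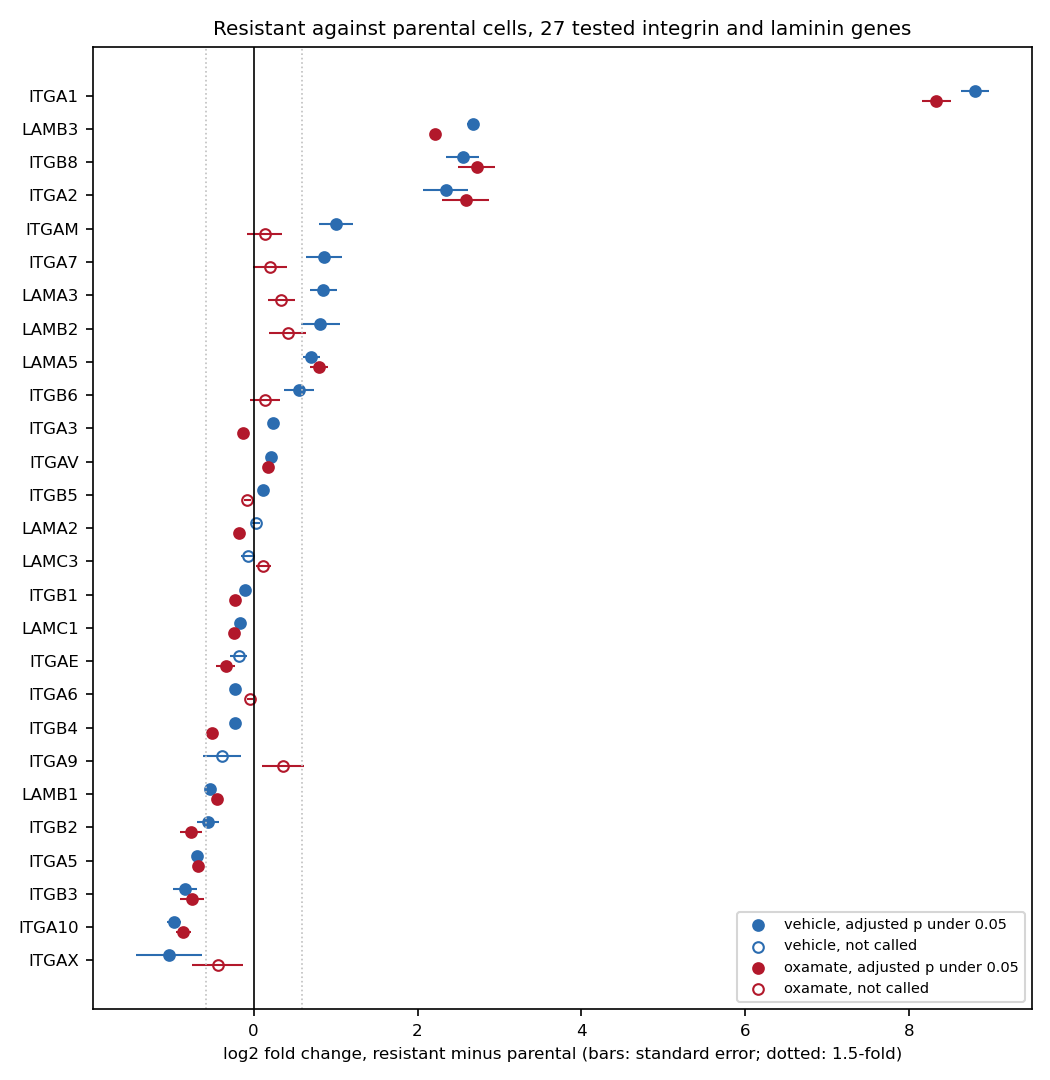
Log2 fold change of resistant against parental cells for the 27 tested genes under vehicle and under oxamate, with standard errors from 12 libraries; filled points have an adjusted p under 0.05 and dotted lines mark 1.5-fold. ITGA1, LAMB3, ITGB8 and ITGA2 stand apart to the right in both conditions; the fitted value of ITGA1 rests on 1 or 2 counts per parental library and depends on the prior count.

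ITGA1, a collagen-binding alpha subunit (chr5:52787896-52959210, plus strand, hg38), was nearly absent from parental cells and readily counted in resistant cells. It had 1, 2 and 1 counts in the 3 vehicle-treated parental libraries and 1, 1 and 2 counts in the 3 oxamate-treated parental libraries, all below the floor. In resistant libraries it reached 7.84, 7.73 and 7.14 CPM after vehicle and 8.15, 8.25 and 7.22 CPM after oxamate. The groups were thus far from overlapping, and the parental libraries, with the lower counts, were the deeper ones. Summed over libraries and scaled to library size, the ratio of resistant to parental cells was 505 under vehicle (95% counting interval 197 to 1855, 4 counts against 1326) and 348 under oxamate (95% counting interval 136 to 1279, 4 counts against 1282). The edgeR adjusted p was 8.8e-16 under vehicle and 1.12e-15 under oxamate. ITGA1 passed the filter on low counts only through its resistant libraries, so these p-values are no separate support for the difference. The counts themselves show it. In these bulk libraries, more cells with a transcript and more transcripts per cell cannot be told apart.

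ITGA2, the neighbouring collagen receptor subunit (chr5:52989326-53094779, plus strand), also rose, to a much lower level than ITGA1. It was at 0.0849, 0.0812 and 0.0965 CPM in vehicle-treated and 0.0894, 0.133 and 0.0724 CPM in oxamate-treated parental libraries (5 to 9 counts each), and at 0.541, 0.403 and 0.394 CPM in vehicle-treated and 0.498, 0.619 and 0.638 CPM in oxamate-treated resistant libraries (23 to 38 counts each). Every resistant library lay above every parental library (log2 fold change 2.34, SE 0.28, edgeR adjusted p = 1.21e-06 under vehicle; log2 fold change 2.59, SE 0.29, edgeR adjusted p = 4.16e-07 under oxamate). Like ITGA1, ITGA2 passed the filter on low counts only through its resistant libraries, so the same limit holds for its p-values. ITGA10, the third collagen-binding subunit (chr1:145891208-145910189, minus strand), went the other way. Its levels were 14.6, 14.8 and 15.1 CPM in vehicle-treated and 13.6, 13.2 and 16.8 CPM in oxamate-treated parental libraries, and 7.03, 7.19 and 8.37 CPM in vehicle-treated and 7.60, 7.86 and 8.68 CPM in oxamate-treated resistant libraries, with no overlap between the cell populations (log2 fold change -0.98, SE 0.086, edgeR adjusted p = 3.87e-08 under vehicle; log2 fold change -0.86, SE 0.088, edgeR adjusted p = 1.63e-07 under oxamate). Per kilobase, ITGA10 nevertheless remained the most abundant collagen-binding subunit in vehicle-treated resistant cells, at 1.19 ± 0.116 CPM per kilobase against 0.408 ± 0.0202 for ITGA1 and 0.0564 ± 0.0104 for ITGA2.

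The sequences at the starts of the 4 genes with the largest increases, and of ITGA5, the most abundant gene that fell by over 1.5-fold, are given from RefSeq (GRCh38.p14), 250 bases before to 50 after the annotated start, on the strand of the gene. RefSeq start windows were matched for 26 of the 38 genes (33 windows). Capitals mark matches on either strand. AP-1 sites were searched as TGANTCA. For the GC box, which Sp1 factors bind, the letters were GGGCGG. The box that the NF-Y factor binds was searched by its usual name, CCAAT. For the TATA box the letters were TATAAA, and the core of hypoxia response elements was searched as ACGTG.
ITGA1 (chr5:52787666-52787965, plus strand): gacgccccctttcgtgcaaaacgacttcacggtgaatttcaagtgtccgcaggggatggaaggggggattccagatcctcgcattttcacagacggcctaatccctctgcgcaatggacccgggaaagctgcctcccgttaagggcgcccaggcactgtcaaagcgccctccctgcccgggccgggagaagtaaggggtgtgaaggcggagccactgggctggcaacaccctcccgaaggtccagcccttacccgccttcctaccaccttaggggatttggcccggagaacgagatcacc
ITGA2 (chr5:52989102-52989401, plus strand): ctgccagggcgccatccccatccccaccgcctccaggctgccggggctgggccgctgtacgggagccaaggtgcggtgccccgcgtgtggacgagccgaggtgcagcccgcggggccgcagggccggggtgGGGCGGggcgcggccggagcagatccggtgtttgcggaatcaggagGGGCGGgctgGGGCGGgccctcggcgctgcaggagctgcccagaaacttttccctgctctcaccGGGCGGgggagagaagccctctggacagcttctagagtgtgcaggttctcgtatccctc
ITGB8 (chr7:20330650-20330949, plus strand): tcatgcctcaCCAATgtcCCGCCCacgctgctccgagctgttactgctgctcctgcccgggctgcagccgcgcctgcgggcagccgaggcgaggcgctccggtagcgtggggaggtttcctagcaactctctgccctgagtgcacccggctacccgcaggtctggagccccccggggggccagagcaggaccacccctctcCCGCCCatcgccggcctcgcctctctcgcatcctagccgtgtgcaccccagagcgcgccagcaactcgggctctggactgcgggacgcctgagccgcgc
LAMB3, innermost start of the 3 (chr1:209651325-209651624, minus strand): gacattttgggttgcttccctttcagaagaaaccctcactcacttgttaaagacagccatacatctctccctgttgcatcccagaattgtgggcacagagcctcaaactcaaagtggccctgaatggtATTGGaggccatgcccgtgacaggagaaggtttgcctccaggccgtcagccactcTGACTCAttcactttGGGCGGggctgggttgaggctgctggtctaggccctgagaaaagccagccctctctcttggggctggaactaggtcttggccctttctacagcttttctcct
LAMB3, outermost start of the 3 (chr1:209652376-209652675, minus strand): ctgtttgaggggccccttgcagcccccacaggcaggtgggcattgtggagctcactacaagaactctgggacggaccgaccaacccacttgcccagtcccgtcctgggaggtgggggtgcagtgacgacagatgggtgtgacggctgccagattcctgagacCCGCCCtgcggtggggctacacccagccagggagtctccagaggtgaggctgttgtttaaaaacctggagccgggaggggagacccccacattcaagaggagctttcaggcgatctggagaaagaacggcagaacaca
ITGA5 (chr12:54419217-54419516, minus strand): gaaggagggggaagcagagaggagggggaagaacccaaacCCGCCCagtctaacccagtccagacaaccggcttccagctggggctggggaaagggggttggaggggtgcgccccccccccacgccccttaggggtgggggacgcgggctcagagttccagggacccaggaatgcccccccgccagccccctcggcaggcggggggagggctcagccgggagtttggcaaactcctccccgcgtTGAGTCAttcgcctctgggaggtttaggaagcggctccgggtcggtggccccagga

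The ITGA1 window held none of the 5 motifs, and it is the same window as that of PELO, a ribosome rescue factor gene that starts at the same base on the same strand. PELO did not follow ITGA1: it was at 25.8 ± 0.434 CPM (SD, n = 3) in vehicle-treated parental and 26.5 ± 0.518 CPM in vehicle-treated resistant cells (log2 fold change 0.039, SE 0.036, edgeR adjusted p = 0.335). The ratio of ITGA1 to PELO counts within a library was 0.000360, 0.000801 and 0.000622 in vehicle-treated parental and 0.289, 0.295 and 0.273 in vehicle-treated resistant libraries. In the annotation PELO shares 475 bases of exon with ITGA1, 2.56% of the merged exons of ITGA1, so reads from PELO could reach ITGA1 only in that part. The ITGA2 window held 4 GC boxes, the ITGB8 window 2 GC boxes and a CCAAT box, the innermost LAMB3 window an AP-1 site, a GC box and a CCAAT box, and the ITGA5 window an AP-1 site 6 bases before the start and a GC box. Over all 34943 RefSeq windows of this length, 44.9% held a GC box, 34.6% a CCAAT box, 7.72% an AP-1 site, 11.6% a TATA box and 21.4% the hypoxia core. These are matches of letters, not measured binding sites.

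**Figure D3:**
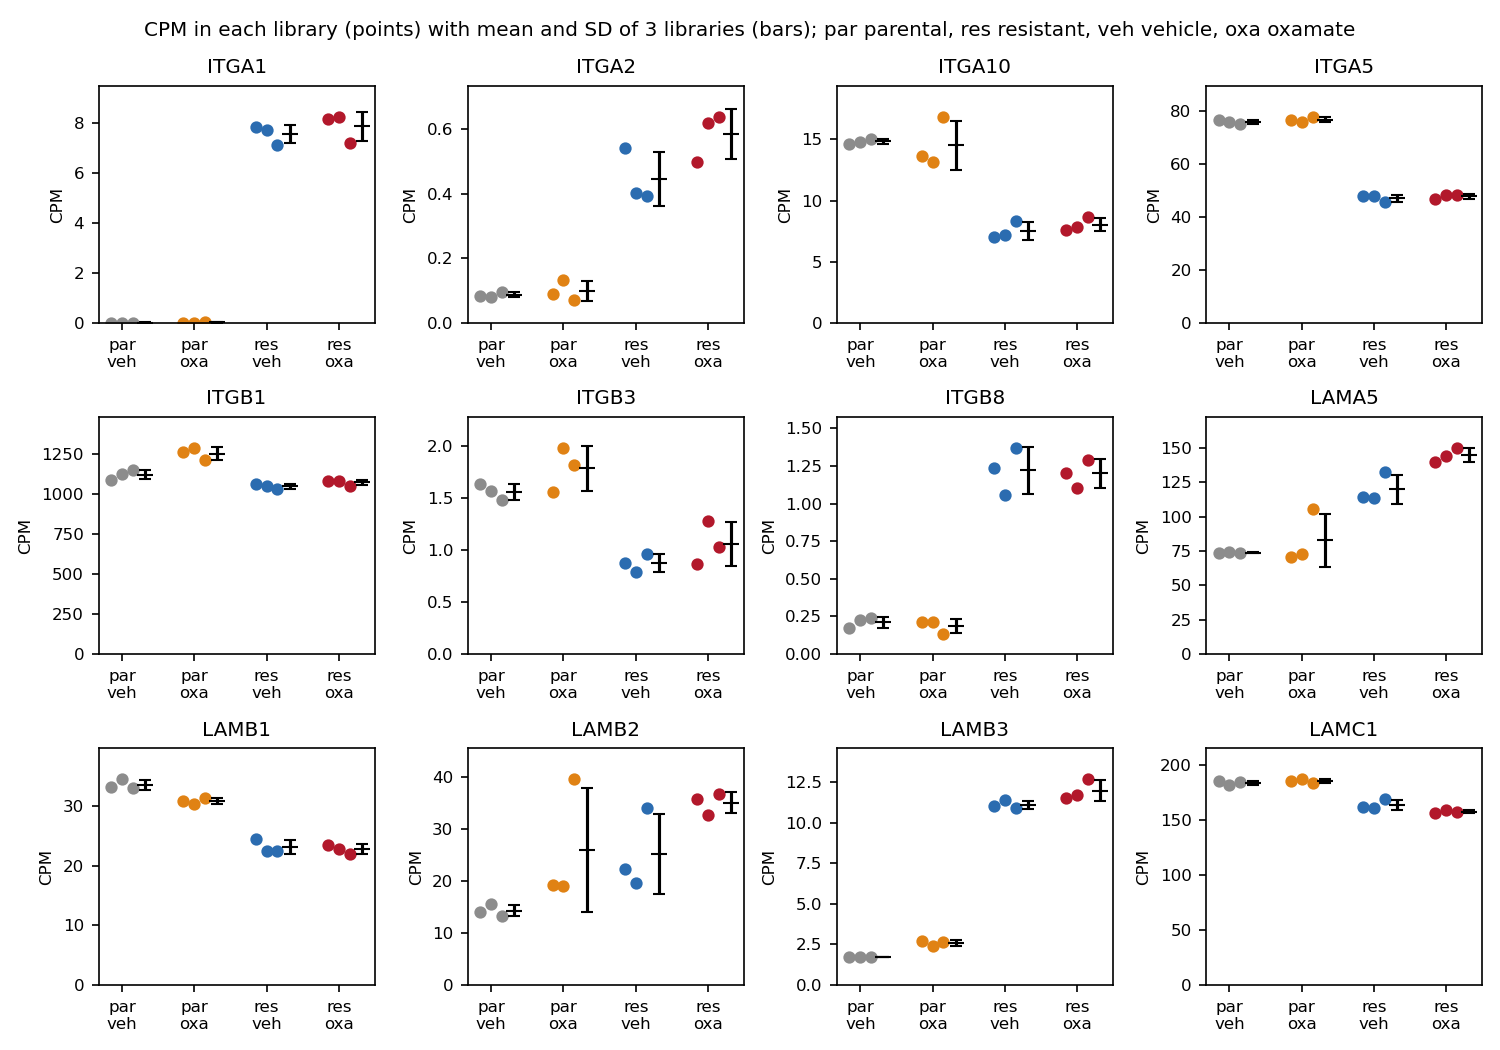
CPM of 12 genes in each of the 12 libraries (points, 3 per group) with mean and SD (bars), each panel on its own linear axis from 0. ITGA1, ITGA2, ITGB8 and LAMB3 separate resistant from parental libraries, ITGA10, ITGA5, ITGB3 and LAMB1 do so in the other direction, and single high libraries widen LAMB2.

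The laminin-binding subunits ITGA3 and ITGA6 and their partners differed by small amounts. ITGA3 was at 797 ± 24.4 CPM (SD, n = 3) in vehicle-treated parental and 935 ± 14.3 CPM in vehicle-treated resistant cells and rose (log2 fold change 0.23, SE 0.024, edgeR adjusted p = 2.73e-07). Under oxamate it was lower in resistant cells (log2 fold change -0.13, SE 0.024, edgeR adjusted p = 0.000124), a direction that turned to 0.20 with library size alone and that was not called with upper-quartile factors (-0.043, adjusted p = 0.0935). ITGA6 fell under vehicle by 0.23 on the log2 scale (adjusted p = 6.83e-06), a call lost with library size alone (-0.0062, adjusted p = 0.862), and its value under oxamate was -0.044 (adjusted p = 0.214). ITGB4 fell in both comparisons, with log2 fold changes of -0.23 (adjusted p = 6.08e-07) under vehicle and -0.51 (adjusted p = 2e-11) under oxamate, the first of which came to -0.0061 with library size alone. The count ratio of ITGB4 to ITGB1 went from 1.06, 0.998 and 0.984 in vehicle-treated parental to 0.907, 0.922 and 0.957 in vehicle-treated resistant libraries, a measure that does not depend on the scaling. ITGA7, the muscle laminin receptor, was low throughout: 0.396, 0.507 and 0.450 CPM in vehicle-treated and 0.751, 0.800 and 0.927 CPM in oxamate-treated parental libraries, and 0.803, 0.571 and 1.08 CPM in vehicle-treated and 1.13, 0.813 and 0.923 CPM in oxamate-treated resistant libraries. The vehicle-treated resistant libraries lay above the vehicle-treated parental ones (log2 fold change 0.86, SE 0.22, edgeR adjusted p = 0.00239), with a value of 0.36 (adjusted p = 0.249) when the nuclear-retained RNA was a covariate, and under oxamate the value was 0.20 (adjusted p = 0.39).

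Among RGD-binding subunits, ITGA5 fell and ITGAV rose. ITGA5 (chr12:54395261-54419460, minus strand), which with ITGB1 forms the main fibronectin receptor, was at 76.5, 75.7 and 75.0 CPM in vehicle-treated and 76.4, 75.7 and 77.6 CPM in oxamate-treated parental libraries. In resistant libraries it was at 47.9, 47.7 and 45.6 CPM after vehicle and 46.7, 48.3 and 48.3 CPM after oxamate, below every parental library (log2 fold change -0.69, SE 0.027, edgeR adjusted p = 2.72e-12 under vehicle; log2 fold change -0.68, SE 0.027, edgeR adjusted p = 1.57e-12 under oxamate). ITGAV rose, with log2 fold changes of 0.21 (adjusted p = 1.51e-05) under vehicle and 0.18 (adjusted p = 8.41e-05) under oxamate. The count ratio of ITGAV to ITGA5 was 0.824, 0.884 and 0.917 in vehicle-treated parental and 1.61, 1.57 and 1.70 in vehicle-treated resistant libraries, with no overlap, and 0.967, 0.947 and 0.921 and 1.75, 1.71 and 1.68 in the oxamate-treated libraries of each population.

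The beta subunits that pair with ITGAV moved apart. ITGB8, which with ITGAV binds latent TGF-beta (chr7:20330702-20415754, plus strand), was at 0.170, 0.223 and 0.241 CPM in vehicle-treated and 0.215, 0.209 and 0.130 CPM in oxamate-treated parental libraries, and at 1.24, 1.06 and 1.37 CPM in vehicle-treated and 1.21, 1.10 and 1.29 CPM in oxamate-treated resistant libraries. It rose in both comparisons, and every resistant library exceeded every parental library (log2 fold change 2.55, SE 0.20, edgeR adjusted p = 7.62e-09 under vehicle; log2 fold change 2.72, SE 0.22, edgeR adjusted p = 8.51e-09 under oxamate). ITGB3, the vitronectin receptor partner, was at 1.63, 1.56 and 1.48 CPM in vehicle-treated and 1.56, 1.98 and 1.81 CPM in oxamate-treated parental libraries, and fell to 0.873, 0.789 and 0.959 CPM in vehicle-treated and 0.861, 1.28 and 1.02 CPM in oxamate-treated resistant libraries, again without overlap (log2 fold change -0.84, SE 0.15, edgeR adjusted p = 7.73e-05 under vehicle; log2 fold change -0.76, SE 0.15, edgeR adjusted p = 0.000186 under oxamate). Of its merged exons, 51.57% also belongs to a readthrough gene that is not a row of the table, so reads of both count as ITGB3. For ITGB6, given next, 20.61% of the merged exons is shared with a processed transcript of the same strand that is not a row either. ITGB6, the epithelial partner of ITGAV, was at 0.481, 0.507 and 0.434 CPM in vehicle-treated parental and 0.541, 0.873 and 0.685 CPM in vehicle-treated resistant libraries (log2 fold change 0.55, SE 0.19, edgeR adjusted p = 0.0138), a call lost without the second vehicle-treated resistant library (0.36, adjusted p = 0.127), with DESeq2 (0.55, adjusted p = 0.0594) or with nuclear-retained RNA as a covariate (0.60, adjusted p = 0.0583), and at 0.858, 0.685 and 0.739 and 0.880, 0.774 and 0.856 CPM in the oxamate-treated parental and resistant libraries, where the groups overlapped (0.14 (adjusted p = 0.491)). ITGB5 rose by 0.11 (adjusted p = 0.0281) under vehicle, a call lost without the third vehicle-treated parental library (0.086, adjusted p = 0.112) or without the first or second vehicle-treated resistant one (0.11 in both, adjusted p = 0.0689 and 0.0612). With nuclear-retained RNA as a covariate ITGB5 had 0.19 (adjusted p = 0.00454), and it was -0.077 (adjusted p = 0.128) under oxamate. ITGB1, the shared subunit, was at 1090.4, 1126 and 1150.3 CPM in vehicle-treated and 1259.9, 1288 and 1212 CPM in oxamate-treated parental libraries, and at 1061, 1052 and 1029.9 CPM in vehicle-treated and 1084, 1083 and 1053 CPM in oxamate-treated resistant libraries. It was slightly lower in resistant cells (log2 fold change -0.099, SE 0.027, edgeR adjusted p = 0.00383 under vehicle; log2 fold change -0.22, SE 0.027, edgeR adjusted p = 1.37e-06 under oxamate), and both directions turned with library size alone, to 0.12 and 0.10. The call under vehicle was also lost with upper-quartile factors (-0.023, adjusted p = 0.432) and with nuclear-retained RNA as a covariate (-0.044, adjusted p = 0.212).

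Subunits characteristic of leukocytes were detected at low levels. ITGB2, the beta subunit of ITGAL, ITGAM, ITGAX and ITGAD, was at 1.64, 1.57 and 1.80 CPM in vehicle-treated and 1.95, 2.13 and 1.65 CPM in oxamate-treated parental libraries, and at 1.29, 1.13 and 0.976 CPM in vehicle-treated and 1.13, 1.01 and 1.21 CPM in oxamate-treated resistant libraries, and it fell (log2 fold change -0.56, SE 0.13, edgeR adjusted p = 0.00139 under vehicle; log2 fold change -0.76, SE 0.14, edgeR adjusted p = 9.75e-05 under oxamate). With nuclear-retained RNA as a covariate the value under vehicle was -0.30 (adjusted p = 0.145). An antisense gene that is itself in the table overlaps 4.46% of its exons, and the counting is not stated to use strand. ITGAM, an alpha partner of ITGB2, had 0.358, 0.396 and 0.306 CPM in vehicle-treated and 0.626, 0.438 and 0.638 CPM in oxamate-treated parental libraries, and 0.646, 0.705 and 0.805 CPM in vehicle-treated and 0.555, 0.542 and 0.772 CPM in oxamate-treated resistant libraries. It rose under vehicle (log2 fold change 1.00, SE 0.20, edgeR adjusted p = 0.000353), and the value under oxamate was 0.13 (adjusted p = 0.568). ITGAX, another partner, went the opposite way under vehicle, from 21, 32 and 13 counts (0.198, 0.325 and 0.209 CPM) in parental to 5, 5 and 11 counts (0.0873, 0.0840 and 0.188 CPM) in resistant libraries (log2 fold change -1.03, SE 0.41, edgeR adjusted p = 0.0306). That call was lost without the second vehicle-treated parental library (-0.75, adjusted p = 0.147) or without the first or second vehicle-treated resistant library (-0.85 to -0.83, adjusted p between 0.109 and 0.116), with library size alone (-0.81, adjusted p = 0.088) and with DESeq2 (-1.04, adjusted p = 0.0528), and the value was -1.80 (adjusted p = 0.00269) with nuclear-retained RNA as a covariate. Under oxamate ITGAX was at 0.411, 0.419 and 0.565 CPM in parental and 0.268, 0.252 and 0.503 CPM in resistant libraries, and the groups overlapped (-0.44 (adjusted p = 0.21)). ITGAE was -0.18 (adjusted p = 0.118) under vehicle and fell, at -0.34 (adjusted p = 0.0107) under oxamate, a call lost without the second (-0.28, adjusted p = 0.0532) or the third oxamate-treated resistant library and, at -0.019, with library size alone. ITGA9 was -0.39 (adjusted p = 0.145) under vehicle and 0.36 (adjusted p = 0.217) under oxamate.

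Of the laminin chains, LAMB3 changed most. LAMB3, a beta chain of the epithelial laminin of hemidesmosomes (chr1:209614870-209652466, minus strand), was at 1.73, 1.73 and 1.74 CPM in vehicle-treated and 2.68, 2.38 and 2.67 CPM in oxamate-treated parental libraries. In resistant libraries it reached 11.0, 11.4 and 10.9 CPM after vehicle and 11.5, 11.7 and 12.7 CPM after oxamate, and the lowest of these was several times the highest parental value (log2 fold change 2.68, SE 0.066, edgeR adjusted p = 1.3e-14 under vehicle; log2 fold change 2.21, SE 0.066, edgeR adjusted p = 4.98e-14 under oxamate). LAMA3, an alpha chain that LAMB3 joins, was at 0.566, 0.659 and 0.627 CPM in vehicle-treated and 0.787, 0.800 and 0.869 CPM in oxamate-treated parental libraries, and at 1.33, 1.14 and 0.873 CPM in vehicle-treated and 0.976, 1.08 and 1.06 CPM in oxamate-treated resistant libraries. LAMA3 rose under vehicle (log2 fold change 0.85, SE 0.16, edgeR adjusted p = 0.000166), and its value under oxamate was 0.34 (adjusted p = 0.071). Per kilobase, LAMB3 was at 2.37 ± 0.0550 and LAMA3 at 0.0759 ± 0.0155 CPM per kilobase in vehicle-treated resistant cells.

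The widely expressed chains LAMA5, LAMB1, LAMB2 and LAMC1 moved in different directions. LAMA5, the main alpha chain here (chr20:62307955-62367312, minus strand), was at 73.6, 74.4 and 73.5 CPM in vehicle-treated and 70.7, 72.8 and 105 CPM in oxamate-treated parental libraries, and at 114, 114 and 132 CPM in vehicle-treated and 140.0, 144 and 150.1 CPM in oxamate-treated resistant libraries, and it rose (log2 fold change 0.70, SE 0.10, edgeR adjusted p = 1.62e-05 under vehicle; log2 fold change 0.80, SE 0.11, edgeR adjusted p = 3.35e-06 under oxamate). The third oxamate-treated parental library, high in nuclear-retained RNA, was also the highest of the parental libraries for LAMA5, and with that RNA as a covariate the log2 fold changes were 0.32 (adjusted p = 0.000181) under vehicle and 0.54 (adjusted p = 3.83e-08) under oxamate. LAMB1 fell, with log2 fold changes of -0.54 (adjusted p = 4e-09) under vehicle and -0.44 (adjusted p = 4.11e-08) under oxamate. LAMC1, the shared gamma chain, was at 185, 182 and 184 CPM in vehicle-treated and 186, 187 and 183 CPM in oxamate-treated parental libraries, and at 162, 161 and 169 CPM in vehicle-treated and 157, 159 and 158 CPM in oxamate-treated resistant libraries, without overlap (log2 fold change -0.16, SE 0.024, edgeR adjusted p = 1.27e-05 under vehicle; log2 fold change -0.23, SE 0.024, edgeR adjusted p = 1.77e-07 under oxamate), but its direction turned to 0.055 and 0.090 with library size alone. LAMA2 was 0.027 (adjusted p = 0.607) under vehicle and -0.18 (adjusted p = 0.0022) under oxamate, where library size alone gave 0.14 and upper-quartile factors gave -0.095 (adjusted p = 0.0766), and LAMC3 was -0.070 (adjusted p = 0.465) and 0.12 (adjusted p = 0.221). Within a library, the count ratio of LAMA5 to LAMC1 was 0.397, 0.409 and 0.399 in vehicle-treated parental and 0.706, 0.707 and 0.782 in vehicle-treated resistant libraries, so the alpha chain gained on the gamma chain whatever the scaling.

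LAMB2, the alternative beta chain to LAMB1 (chr3:49121114-49133118, minus strand), moved with the nuclear-retained RNA of each library. It was at 14.0, 15.6 and 13.3 CPM in vehicle-treated and 19.2, 19.0 and 39.6 CPM in oxamate-treated parental libraries, and at 22.2, 19.5 and 33.9 CPM in vehicle-treated and 35.7, 32.7 and 36.6 CPM in oxamate-treated resistant libraries. The third oxamate-treated parental and the third vehicle-treated resistant library, the ones high in nuclear-retained RNA, held the highest value of their group. LAMB2 rose in resistant cells under vehicle (log2 fold change 0.81, SE 0.24, edgeR adjusted p = 0.00541), with 0.54 (adjusted p = 0.049) without that resistant library and -0.11 (adjusted p = 0.206) with the RNA as a covariate. Under oxamate the value was 0.41 (adjusted p = 0.102). The count ratio of LAMB2 to LAMB1 was 0.422, 0.451 and 0.405 in vehicle-treated parental, 0.624, 0.624 and 1.26 in oxamate-treated parental, 0.909, 0.868 and 1.51 in vehicle-treated resistant and 1.52, 1.44 and 1.67 in oxamate-treated resistant libraries. In the plot of LAMB2, LAMA5 and LAMB3 against this RNA, LAMB3 separated the populations at every level of it.

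**Figure D4:**
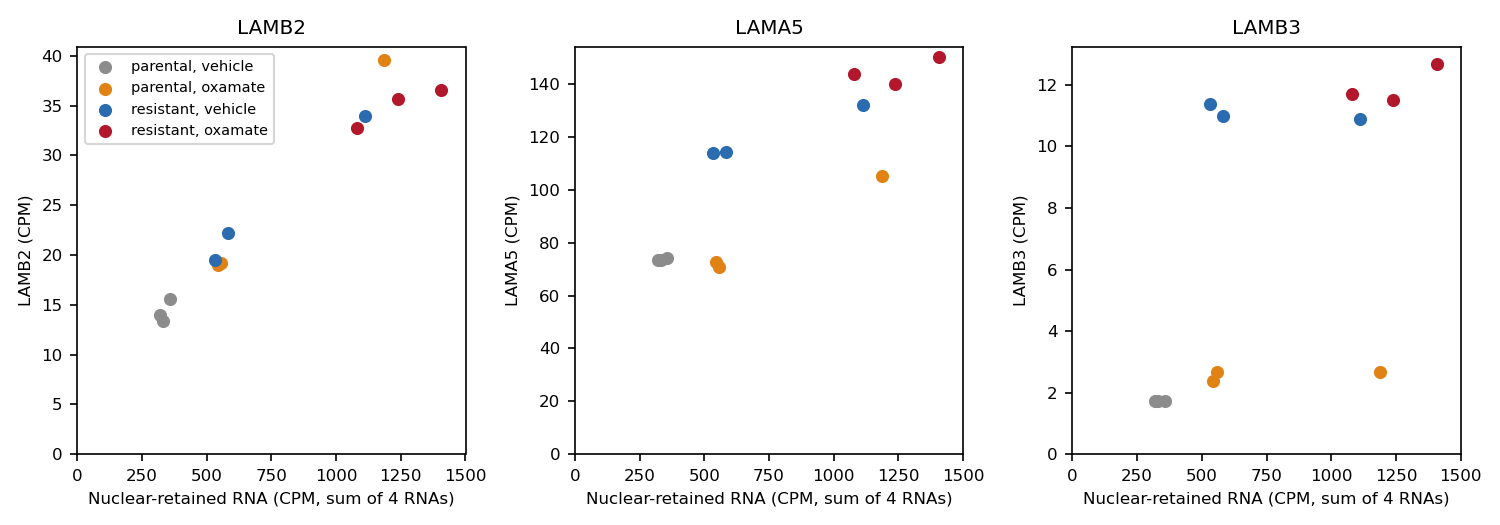
CPM of LAMB2, LAMA5 and LAMB3 (vertical) against the summed CPM of MALAT1, NEAT1, KCNQ1OT1 and MIAT (horizontal), 1 point per library. The 5 libraries highest in nuclear-retained RNA are also the 5 highest for LAMB2, whereas LAMB3 lies between 10.9 and 12.7 CPM in resistant and between 1.73 and 2.68 CPM in parental libraries.

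The response of parental cells to oxamate was small for most integrin and laminin genes. The genes that rose by over 1.5-fold were ITGAX, ITGA7, LAMB2, ITGAM and ITGB6, of which LAMB2 alone exceeded 1 CPM in every library, and the abundant ITGA3, ITGB1 and ITGB4 rose by less. Of the 27 tested genes, 12 rose (44.4%, against 28.3% of all genes tested) and 2 fell (7.41%, against 30.4%). By over 1.5-fold, 5 rose (18.5%, against 5.32% of all genes) and 0 fell, where 4.06% of all genes did. These counts came from edgeR. With DESeq2, 3 rose by over 1.5-fold, since ITGAX and ITGAM were not called, whereas the count of 0 was also 0 at an unadjusted p under 0.05 with that fold and with limma-voom and DESeq2. The median was 0.17, beside 0.003 over all genes. ITGA3 rose (log2 fold change 0.35, SE 0.024, edgeR adjusted p = 7.47e-09), as did LAMB3 (log2 fold change 0.57, SE 0.078, edgeR adjusted p = 1.28e-05), ITGB4 (0.20 (adjusted p = 6.22e-06)), LAMA2 (0.28 (adjusted p = 7.79e-05)), ITGB1 (0.16 (adjusted p = 0.000119)) and ITGAV (0.13 (adjusted p = 0.00206)), the last of which was not called with library size alone (0.054, adjusted p = 0.168). ITGA6 and LAMB1 fell, at -0.19 (adjusted p = 5.75e-05) and -0.12 (adjusted p = 0.0121), the second without a call when the second vehicle-treated library was left out (-0.10, adjusted p = 0.0668) or with nuclear-retained RNA as a covariate (-0.12, adjusted p = 0.0899). ITGB6 rose (log2 fold change 0.67, SE 0.18, edgeR adjusted p = 0.00535) and kept a value of 0.73 (adjusted p = 0.0378) with nuclear-retained RNA as a covariate.

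The other increases over 1.5-fold were smaller without the third oxamate-treated library or with the covariate. LAMB2 (log2 fold change 0.87, SE 0.23, edgeR adjusted p = 0.00463) had 0.41 (adjusted p = 0.0338) without that library and -0.12 (adjusted p = 0.227) with nuclear-retained RNA as a covariate. ITGAX (log2 fold change 0.93, SE 0.31, edgeR adjusted p = 0.0167) was not called without it (0.75, adjusted p = 0.0858), without the first vehicle-treated library (0.76, adjusted p = 0.0768), with the covariate (0.11, adjusted p = 0.851) or with DESeq2 (0.93, adjusted p = 0.0516). ITGAM (log2 fold change 0.67, SE 0.21, edgeR adjusted p = 0.0126) was not called without it either (0.57, adjusted p = 0.0655), with the covariate (0.34, adjusted p = 0.373) or with DESeq2 (0.67, adjusted p = 0.0512). For ITGA7 (log2 fold change 0.88, SE 0.22, edgeR adjusted p = 0.00279), the covariate gave 0.37 (adjusted p = 0.288). LAMA3 rose, at 0.41 (adjusted p = 0.0445), at the edge of the threshold, and was called only without the first or the third vehicle-treated resistant library among the 12 fits that left out a library (0.35 to 0.47, adjusted p between 0.0518 and 0.136 in the other 10). It was also not called with library size alone, without a filter on low counts, with the replicate block, with DESeq2 or with the covariate (0.34 to 0.57, adjusted p between 0.0517 and 0.146). Genes of this comparison that did not pass the test were ITGA10 at -0.021, ITGA2 at 0.15, ITGA5 at 0.017, ITGA9 at -0.55, ITGAE at -0.096, ITGB2 at 0.19, ITGB3 at 0.19, ITGB5 at 0.094, ITGB8 at -0.19, LAMA5 at 0.17, LAMC1 at 0.014 and LAMC3 at -0.034, all on the log2 scale, and ITGA1, which was below the floor in both groups.

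In resistant cells, renewed oxamate changed few of these genes. ITGAV and ITGAX rose and ITGB4 fell. These were 2 genes higher (7.41%, against 9.01% of all genes) and 1 lower (3.70%, against 12.5%), of which 1 rose by over 1.5-fold (all genes 1.16%) and 0 fell by over 1.5-fold (all genes 0.158%). That count of 0 from edgeR was also 0 at an unadjusted p under 0.05 with that fold, with limma-voom and with DESeq2, and the count of 1 was 0 with DESeq2 and 1 with limma-voom and at an unadjusted p under 0.05. ITGAX went from 5, 5 and 11 counts to 14, 13 and 30 counts (0.0873, 0.0840 and 0.188 and 0.268, 0.252 and 0.503 CPM), without overlap (log2 fold change 1.52, SE 0.41, edgeR adjusted p = 0.0162). Its call was lost without the first or second vehicle-treated library (1.34, adjusted p = 0.0707, and 1.31, adjusted p = 0.0748) or the third oxamate-treated library (1.10, adjusted p = 0.111), and its value was 0.99 (adjusted p = 0.143) with nuclear-retained RNA as a covariate. ITGAV (log2 fold change 0.096, SE 0.031, edgeR adjusted p = 0.0392) and ITGB4 (log2 fold change -0.084, SE 0.025, edgeR adjusted p = 0.0268) were small. ITGAV was not called without the second vehicle-treated parental library, the first or second vehicle-treated resistant library or any 1 of the oxamate-treated resistant libraries (0.081 to 0.10, adjusted p between 0.0543 and 0.154), nor without a filter on low counts (0.089, adjusted p = 0.0624), with DESeq2 (0.092, adjusted p = 0.0529) or with the covariate (0.095, adjusted p = 0.131). ITGB4 was not called without any 1 of the vehicle-treated resistant libraries or the first or second oxamate-treated resistant library (-0.093 to -0.073, adjusted p between 0.0518 and 0.108), nor with upper-quartile factors (-0.061, adjusted p = 0.0992) or library size alone (-0.054, adjusted p = 0.191). LAMA5, at 0.27 (adjusted p = 0.0772), and LAMB3, at 0.11 (adjusted p = 0.172), did not pass the test. The collagen receptor subunits and ITGB8, which separated the populations, were at 0.055 (adjusted p = 0.615) for ITGA1, 0.40 (adjusted p = 0.204) for ITGA2, 0.098 (adjusted p = 0.489) for ITGA10 and -0.023 (adjusted p = 0.937) for ITGB8. The median over the 27 genes was 0.055, beside -2.06e-05 over all genes.

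Whether the populations responded differently to oxamate was tested as the difference of their responses, resistant minus parental. Here 7 genes had a lower response in resistant cells (25.9%, against 21.4% of all genes tested) and 1 a higher one (3.70%, against 22.7%). ITGAM was the 1 gene with a difference of over 1.5-fold in that direction (all genes 2.53%), and 0 genes had one in the other (all genes 4.99%), a count of 0 in edgeR that was also 0 at an unadjusted p under 0.05 and with limma-voom and DESeq2. The count of 1 in the first direction was 0 with DESeq2, 1 with limma-voom and 2 at an unadjusted p under 0.05. LAMB3 had a log2 response of 0.57 in parental and 0.11 in resistant cells (difference -0.46, SE 0.096, edgeR adjusted p = 0.001). ITGA3 had 0.35 and -0.0098 (difference -0.36, SE 0.034, edgeR adjusted p = 6.69e-07), and ITGB4 0.20 and -0.084 (difference -0.28, SE 0.036, edgeR adjusted p = 1.24e-05). The abundant laminin-receptor subunits ITGA3 and ITGB4, which rose in parental cells, thus had less of a response in resistant cells. Under vehicle, ITGA3 was higher in resistant cells (797 ± 24.4 CPM in parental and 935 ± 14.3 CPM in resistant cells, SD, n = 3). ITGB4 was lower there (1137 ± 16.3 CPM in parental and 973 ± 12.2 CPM in resistant cells). ITGA6, which fell in parental cells, was the gene with a higher response in resistant cells (difference 0.18 (adjusted p = 0.00363)). The remaining differences were -0.87 for ITGAM, -0.21 for LAMA2, -0.19 for ITGB5 and -0.12 for ITGB1. ITGAM was not called without the third vehicle-treated parental, the first or the third oxamate-treated parental, the third vehicle-treated resistant, or the first or second oxamate-treated resistant library (-0.80 to -0.77, adjusted p between 0.0512 and 0.0653). ITGB5 was not called without the third vehicle-treated parental, the first oxamate-treated parental or the third oxamate-treated resistant library (-0.16 to -0.13, adjusted p between 0.052 and 0.0561), nor LAMA2 without the first vehicle-treated resistant library (-0.18, adjusted p = 0.0544). With library size alone the differences of ITGB1 (-0.018, adjusted p = 0.69), ITGB5 (-0.084, adjusted p = 0.253) and LAMA2 (-0.10, adjusted p = 0.222) were not called, nor were those of ITGAM (-0.88, adjusted p = 0.0857) and LAMA2 (-0.21, adjusted p = 0.0715) with DESeq2. The median difference over the 27 genes was -0.12, beside -0.0072 over all genes.

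Genes that act with integrins and laminins were followed in 6 lists written from general knowledge, each described by counts at an adjusted p under 0.05 in resistant against parental cells. Of 23 tested integrin activators and linkers (talins, kindlins, vinculin and others), 3 were higher and 17 lower under vehicle, and 2 higher and 16 lower under oxamate. TNS3, a tensin that binds beta subunit tails, had the smallest p of those that rose (136 ± 2.28 CPM in vehicle-treated parental and 253 ± 4.32 CPM in vehicle-treated resistant cells, SD, n = 3; log2 fold change 0.89, SE 0.029, edgeR adjusted p = 3.29e-13), and VCL, vinculin, of those that fell (633 ± 17.2 and 430.0 ± 4.54 CPM; log2 fold change -0.56, SE 0.024, edgeR adjusted p = 7.27e-12). By over 1.5-fold under vehicle, 2 of the 23 rose and 0 fell in edgeR, where 17.0% and 6.09% of all genes did. The median log2 fold change of the list was -0.26 under vehicle and -0.25 under oxamate. Scaling by library size alone raised the median of all genes by 0.22 and 0.32, and no count of the list is given with that scaling. Of 19 focal adhesion signalling genes, 7 were higher and 10 lower under vehicle, with ARHGEF6, a Rac and Cdc42 exchange factor, rising from 1.198 ± 0.158 to 3.59 ± 0.0884 CPM (log2 fold change 1.57, SE 0.10, edgeR adjusted p = 1.22e-09) and PXN, paxillin, falling from 398 ± 2.21 to 243 ± 2.71 CPM (log2 fold change -0.71, SE 0.021, edgeR adjusted p = 9e-14).

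Among 8 tested matrix ligands outside the laminins, 6 were higher and 1 lower in vehicle-treated resistant cells, each by over 1.5-fold, where 17.0% and 6.09% of all genes were. FN1, fibronectin, the ligand of ITGA5 and ITGAV dimers, rose from 0.339 ± 0.0568 CPM in vehicle-treated parental to 19.2 ± 1.60 CPM in vehicle-treated resistant cells (SD, n = 3; log2 fold change 5.78, SE 0.095, edgeR adjusted p = 1.89e-16), whereas ECM1 fell from 10.7 ± 0.702 to 6.18 ± 0.218 CPM (log2 fold change -0.80, SE 0.069, edgeR adjusted p = 2.81e-08). The fibronectin transcript and the ITGA5 receptor subunit thus changed in opposite directions. Of 15 other basement membrane genes, 7 were higher and 3 lower, led by AGRN, the laminin-binding proteoglycan agrin (154 ± 2.72 and 302 ± 0.780 CPM; log2 fold change 0.97, SE 0.047, edgeR adjusted p = 3.48e-11), and by COL4A2, a collagen IV chain (57.3 ± 1.75 and 47.2 ± 0.837 CPM; log2 fold change -0.28, SE 0.030, edgeR adjusted p = 3.48e-07). Of 19 laminin receptors other than integrins and their partners, 5 were higher and 8 lower, with SDC1, the cell surface proteoglycan syndecan, among those that fell (121 ± 3.85 and 52.0 ± 1.94 CPM; log2 fold change -1.22, SE 0.031, edgeR adjusted p = 1.75e-14). Of 12 genes of latent TGF-beta, which ITGAV with ITGB6 or ITGB8 can release, 10 were higher and 2 lower. By over 1.5-fold, 4 of them rose and 2 fell, where 17.0% and 6.09% of all genes did, and their median log2 fold change was 0.40. TGFBR2, the type II receptor, was near the floor in vehicle-treated parental cells (0.0721 ± 0.0491 CPM) and at 8.93 ± 0.427 CPM in vehicle-treated resistant cells (edgeR adjusted p = 1.03e-13). Like ITGA1, TGFBR2 passed the filter on low counts only through the resistant libraries. Under oxamate the counts of these 4 lists were 6 higher and 2 lower, 6 and 5, 3 and 14, and 7 and 4. The focal adhesion signalling genes gave 6 higher and 11 lower under oxamate. These counts stand beside 38.4% and 37.3% of all genes under vehicle and 40.6% and 39.7% under oxamate.

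Since ITGA1 and ITGA2 lie next to each other on chromosome 5, the genes beside them were examined, after their values had been seen. EMB, an adhesion glycoprotein gene, was at 0.156 ± 0.0368 CPM in vehicle-treated parental and 3.35 ± 0.151 CPM in vehicle-treated resistant cells (SD, n = 3; log2 fold change 4.37, SE 0.17, edgeR adjusted p = 2.29e-12), and PARP8 at 0.231 ± 0.0309 and 2.80 ± 0.0753 CPM (log2 fold change 3.58, SE 0.14, edgeR adjusted p = 2.53e-12). MOCS2, on the far side of ITGA2, had a log2 fold change of 0.48 (adjusted p = 1.15e-06) and NDUFS4 of -0.20 (adjusted p = 0.000208), and ISL1 and FST had at most 2 counts in any library. EMB (chr5:50396192-50443248) and PARP8 (chr5:50665899-50846522) lie on the far side of ISL1 from ITGA1. Of the tested genes beside them, EMB and PARP8 rose by over 1.5-fold, MOCS2 rose by less, NDUFS4 fell by less and PELO was not called. ITGA1 and ITGA2 are not counted here, since the region was picked for their increase. A change shared by the region was not tested. Over all genes tested, 17.0% rose by over 1.5-fold under vehicle. Beside LAMB3 on chromosome 1, CAMK1G was at 2.64 (adjusted p = 7.89e-10) and G0S2 at 1.84 (adjusted p = 4.58e-08), both higher in resistant cells, at means of no more than 1.71 CPM. Beside ITGB8, SP8 was at 1.92 (adjusted p = 1.22e-05), from 0.107 ± 0.0383 to 0.405 ± 0.0187 CPM, and RPL23P8, the other neighbour tested there, was at -0.28 (adjusted p = 0.519). SP8 passed the filter on low counts only through the resistant libraries. DNA copy number and chromatin of these regions were not analysed here.

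**Figure D5:**
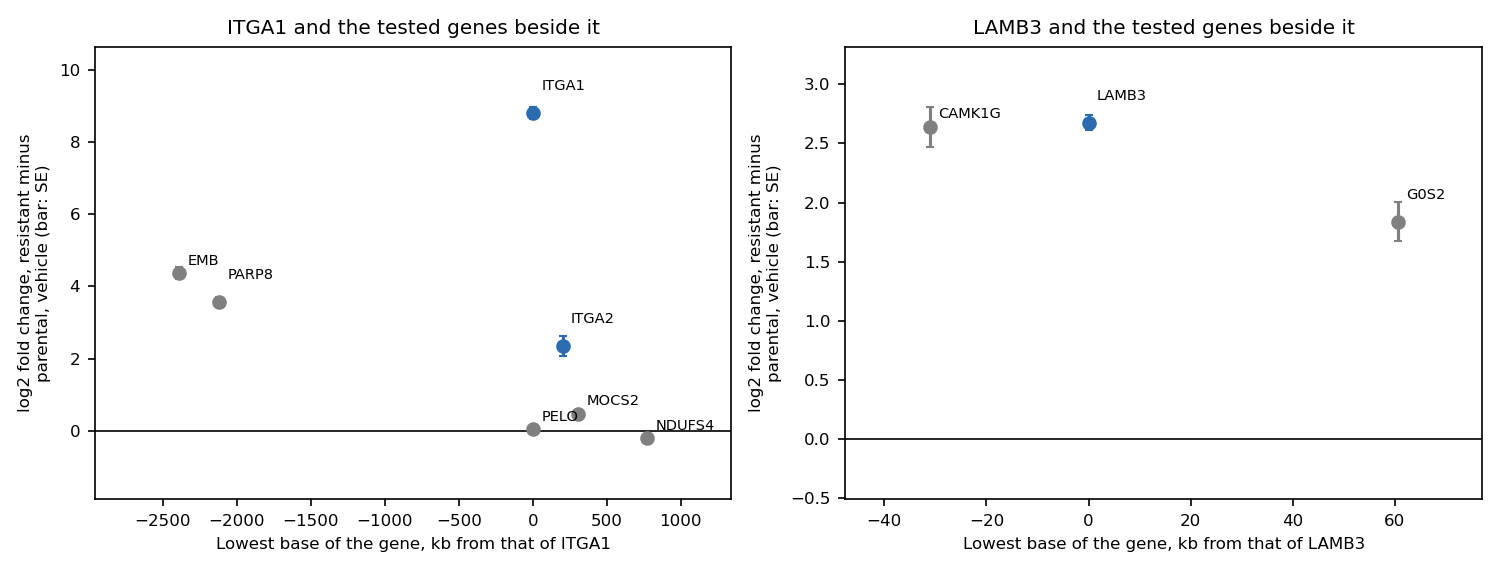
Log2 fold change of vehicle-treated resistant against parental cells (vertical, bars SE) for ITGA1, ITGA2 and LAMB3 (blue) and the tested genes beside them (grey), by distance in kb from the lowest base of ITGA1 (left) or LAMB3 (right). PELO lies at 0.04 beside ITGA1, and CAMK1G and G0S2 are both above 0 beside LAMB3.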

How the data were processed

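RNA of 12 libraries (4 groups of 3) was enriched with oligo(dT) beads and sequenced. The authors mapped reads to a UCSC transcript set with Bowtie2 2.1.0 and estimated gene levels with RSEM 1.2.15 (genome build hg38, versions from the submitters' processing notes), and they deposited expected counts for 26475 symbols without normalization, of which 11.6% of values were not whole. The methods also mention STAR and featureCounts, and the counting is not stated to use strand.

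Expected counts were rounded, filtered with filterByExpr (14582 genes), scaled with TMM and tested in R 4.3.3 with edgeR 4.0.16 (glmQLFit and glmQLFTest, all 12 libraries, Benjamini-Hochberg over all genes tested). A gene was called at an adjusted p under 0.05, and the count with a fold over 1.5 is given beside it. The study's threshold, an unadjusted p under 0.05 with a fold over 1.5, was an alternative. CPM are on the TMM scale, gene lengths, positions and overlaps come from GENCODE release 29 (38 of 38 symbols matched) and start windows from RefSeq (26 of 38). A gene was at the floor where no library had more than 3 counts.

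The genes, lists and tests were chosen with earlier results of these data known. Values in every library are given for genes called with over 1.5-fold in at least 1 of the 4 pairwise comparisons and for ITGB1 and LAMC1, the others by fold change or counts, and from each companion list the tested gene with the smallest p in each direction under vehicle. PELO and the other genes beside ITGA1, ITGA2, ITGB8 and LAMB3 were named after their values were seen. Lists and markers were written from general knowledge, and 3 symbols of the companion lists were not matched. A few of the genes and list members that this rule would name are not reported here.

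Alternatives were RLE, upper-quartile and library-size scaling, no filter, a mean count of at least 25, limma-voom (limma 3.58.1), DESeq2 1.42.0, only the 6 libraries compared, a replicate block, a covariate for nuclear-retained RNA, other thresholds, another gene length and each library left out. The tests were tried on simulated data. Replicates of equal number were not taken as pairs: of 18 such pairs of libraries in different groups, 4 had correlated deviations over 0.1. No 2 replicates agreed within sampling noise.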

Additional observations from a re-analysis of the deposited data

Results flagged for a closer look

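The oxamate responses of resistant and parental cells differed for 8 of the 27 tested genes (edgeR, contrast of the responses, adjusted p under 0.05), which is why these genes are listed. The difference, resistant minus parental on the log2 scale, was -0.46 for LAMB3, -0.36 for ITGA3, -0.28 for ITGB4, -0.21 for LAMA2, -0.19 for ITGB5 and -0.12 for ITGB1. ITGAM had -0.87 at fewer than 50 counts per library, and ITGA6 had 0.18. The call was lost with library size alone for ITGB1, ITGB5 and LAMA2, and with DESeq2 for ITGAM and LAMA2.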

How the results depend on the processing

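In all, 65 differences of the 27 genes were called over the 5 contrasts, and 1416 alternative values were computed for them, of which 1325 kept their direction and call, 83 kept the direction and lost the call, and 8 turned. The values that turned were LAMB2 with the nuclear-retained RNA covariate (-0.12 for parental oxamate and -0.11 for resistant against parental under vehicle) and, with library size alone, ITGB1 (0.12) and LAMC1 (0.055) under vehicle and ITGA3 (0.20), ITGB1 (0.10), LAMA2 (0.14) and LAMC1 (0.090) under oxamate. Library size alone shifted the median gene by the amounts given above. The increases of ITGA1, ITGA2, ITGB8, LAMB3 and LAMA5 and the decreases of ITGA5, ITGA10 and ITGB3 in resistant cells kept their calls under every alternative that gave a value, in both conditions.

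Counts of called genes moved as follows. For parental oxamate, the higher count of 12 was 5 at both fold thresholds, and the lower count of 2 was 4 with library size alone, 4 with the covariate, 0 at both fold thresholds and between 1 and 3 with a library left out. For resistant oxamate, the higher count of 2 was 1 at a mean count of at least 25, 4 with the replicate block, 0 with DESeq2, 0 with the covariate, 4 in the 6 libraries alone, 1 at both fold thresholds and between 0 and 4 with a library left out; the lower count of 1 was 0 with upper-quartile factors, 0 with library size alone, 2 with the replicate block, 0 at both fold thresholds and between 0 and 1 with a library left out. For resistant against parental cells, the lower count of 10 under vehicle was 5 with library size alone and 4 at both fold thresholds, and under oxamate the counts of 6 higher and 11 lower were 18 and 6 with library size alone, and the lower count was 4 at both fold thresholds. For the difference of responses, the higher count of 1 was 3 with library size alone, 4 with the covariate, 0 at both fold thresholds and between 1 and 3 with a library left out, and the lower count of 7 was 4 with library size alone, 2 at the study's threshold and 1 at an adjusted p under 0.05 with over 1.5-fold. Where no value is given beside a change, the cause was not tested.

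The labels do not tie replicate numbers to a shared culture or day, and 4 of 18 pairs of equal number had correlated deviations over 0.1, so the numbers were not taken as pairs, although 7 of 12 libraries correlated best with their own number, a hint from the data and not from the design. The third library was the highest of its group in nuclear-retained RNA in 3 of the 4 groups. The replicate block changed 1 of the 65 called values, LAMA3 for parental oxamate (0.42, adjusted p = 0.0517). ITGAX, ITGAM and ITGA2 rested on fewer than 50 counts in each library, ITGB6 on at most 52 and ITGA7 on at most 64.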
